A study of Mus musculus with 6 samples.

Results

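The genes described are 10 genes of actin turnover, the cycle between monomeric and filamentous actin: the thymosins Tmsb10 and Tmsb4x, the profilins Pfn1 and Pfn2, the cofilin family members Cfl1, Cfl2 and Dstn, the cytoplasmic actins Actb and Actg1, and Cap1. They were taken by Ensembl identifier, and all 10 were found among the 17193 gene identifiers measured. The set was chosen because Tmsb10 was higher after quinpirole in these same libraries. The differences between the groups are therefore given as a description of the members and not as tests of them.

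RNA was sequenced from astrocytes that were pulled from mouse brain with magnetic beads against the astrocyte antigen ACSA-2. All mice were wild-type C57BL/6 animals 3 months old. A first group was labelled mock, and the second group received quinpirole, an agonist of the dopamine receptor DRD2, at a dose and duration that the labels of these libraries do not give. Each group had 3 libraries, and neither labels nor methods say whether a library came from a single mouse or from pooled mice, so the spread between libraries may be partly technical. Values were FPKM, that is the number of sequenced fragments scaled for both the length of the transcript and the depth of the library, so levels of different genes can be compared per length.

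Actin cycles between monomers and filaments. Beta-thymosins bind monomers and hold them back from filaments, whereas profilins bind monomers, exchange their nucleotide and deliver them to growing filament ends. Cofilins and destrin sever old filaments and release monomers, and cyclase-associated protein helps to strip cofilin from the released monomers and recharge them. In astrocytes this machinery shapes the fine processes that contact synapses and blood vessels, and it is rebuilt when astrocytes become reactive.

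The members fall into families of near copies, which matters for reading their values, so the coding sequences of the pair of thymosins are shown whole. Both were 135 bases long in GENCODE M21 and differed at 40 positions (70.4% identity). Bases that differ between the thymosins are in capitals.
Tmsb10: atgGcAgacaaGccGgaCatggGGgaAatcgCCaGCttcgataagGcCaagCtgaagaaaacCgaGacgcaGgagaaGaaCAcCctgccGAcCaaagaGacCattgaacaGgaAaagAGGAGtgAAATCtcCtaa
Tmsb4x: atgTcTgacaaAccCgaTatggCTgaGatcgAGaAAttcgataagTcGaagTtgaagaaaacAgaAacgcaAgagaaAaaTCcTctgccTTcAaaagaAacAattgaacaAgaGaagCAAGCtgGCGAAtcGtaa
The differences were spread over the whole coding sequence. The actins were closer to each other. Their coding sequences had the same length of 1128 bases with 128 differences (88.7% identity), and of the first 60 bases, shown because this stretch holds the codons that set the actin N-termini apart, 9 differed and are in capitals.
Actb: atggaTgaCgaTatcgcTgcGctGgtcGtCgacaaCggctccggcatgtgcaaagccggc
Actg1: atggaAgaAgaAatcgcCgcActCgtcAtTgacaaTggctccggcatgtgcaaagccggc
Identity was 61.5% between Pfn1 and Pfn2, 71.5% between Cfl1 and Cfl2, 68.6% between Cfl1 and Dstn and 66.8% between Cfl2 and Dstn.

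Other genes, copies elsewhere in the genome among them, could share reads with some members. Each member's longest principal transcript was cut into all its overlapping words of 50 bases, and the percentage of words found in any other gene's transcripts was taken. It was 0% for Tmsb4x, Pfn1, Pfn2 and Dstn, 1.18% for Cfl2 and 2.98% for Cap1. It reached 14.2% for Actb, 23.0% for Cfl1, 43.5% for Tmsb10 and 56.7% for Actg1. For Tmsb10 most of this lay in Gm9844, which held 33.2% of its words and was itself listed at 0 to 1.56 FPKM. For Actg1 the copies were mostly processed pseudogenes, of which Gm12715 alone held 51.1% of the words. For Cfl1 and Actb the largest part lay in a protein-coding gene. Snx32 held 16.2% of the Cfl1 words and was listed at 18.1 to 20.7 FPKM. Lrrc58 held 9.57% of the Actb words and was listed at 11.25 to 16.3 FPKM. The authors' treatment of reads with several matches is not stated, so the levels of Tmsb10, Cfl1, Actb and Actg1 carry this uncertainty.

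The 6 libraries had FPKM sums between 401769 and 413730 in the mock group and between 425244 and 437164 in the quinpirole group, and an estimated 22400000 to 27800000 fragments each. Astrocyte markers were abundant: the summed FPKM of 12 markers was 1510 to 1673 in the mock group and 1499 to 1528 after quinpirole, led by Gfap and Aldoc, and Gjb6 was under 1 FPKM in all libraries. Other cells were present. The 12 microglial markers summed to 1022 to 1103 FPKM against 1090 to 1196, and the 12 markers of the oligodendrocyte lineage to 474 to 485 against 497 to 518, although Mog, Mag, Mobp, Pdgfra and Sox10 were under 1 FPKM. The 10 markers of neuroblasts and progenitors summed to 376 to 392 FPKM against 431 to 449, and those of neurons to 74.0 to 79.3 against 86.4 to 92.9 with 7 of 10 under 1 FPKM. Mural markers summed to 2266 to 2447 FPKM against 2445 to 2633, nearly all from Tagln, while Myh11, Rgs5, Kcnj8 and Des were under 1 FPKM. Of the tested markers, 2 of 11 for astrocytes (Atp1b2 and Slc1a2) and 2 of 4 for mural cells (Pdgfrb and Notch3) fell, and 1 each rose for the oligodendrocyte lineage (Olig1), neurons (Stmn2) and neuroblasts and progenitors (Stmn1) (limma, adjusted p under 0.05). Endothelial sums were 47.6 to 48.8 FPKM against 46.7 to 49.9, nearly all from Slco1a4 (44.4 to 47.6 over all libraries), with 6 of 8 markers under 1 FPKM. Ependymal sums were 147 to 165 FPKM against 149 to 160, mostly from Foxj1 (118 to 130), with Tmem212 and Dnah12 under 1 FPKM.

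Among the thymosins, Tmsb10 (ENSMUSG00000079523, GRCm38 chromosome 6, 72957347 to 72958748, minus strand) encodes thymosin beta 10, a small monomer-sequestering peptide. It measured 87.1, 87.9 and 90.0 FPKM in mock libraries 1, 2 and 3, and 113, 110 and 110 FPKM in quinpirole libraries 1, 2 and 3. The lowest quinpirole library lay well above the highest mock library, and the 3 libraries within a group hardly differed. The mean was 26.1% higher after quinpirole, a log2 fold change of 0.33 with a standard error of 0.03 on the log2(FPKM + 1) scale. This is the value for which the set was chosen. An estimated 2934 to 3862 fragments stood behind each library's value, taking the whole exonic length of 1276 nucleotides. Counting error alone at that estimate (1.85%) was as large as the observed spread of 1.68% in the mock and 1.60% in the quinpirole libraries. The length behind the FPKM values is not given, and a shorter length would mean fewer fragments and a larger counting error.

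Tmsb4x (ENSMUSG00000049775, chromosome X, 167207093 to 167209315, minus strand) encodes thymosin beta 4, the major monomer-sequestering peptide of many cells, which microglia also make in large amounts. Its level was 1752, 1747 and 1927 FPKM in the mock libraries and 2105, 2290 and 2099 FPKM in the quinpirole libraries. Every quinpirole library exceeded every mock library, and the third mock library stood closer to the quinpirole group than its companions did. The mean was 19.7% higher, with a log2 fold change of 0.26 (SE 0.06). The summed level of the microglial markers, given above, had ranges that overlapped between the groups. The part of microglial RNA in the Tmsb4x value was not tested. Markers of neuroblasts and progenitors, cells known to hold much Tmsb10 RNA, had sums that did not overlap between the groups. Of 8 tested markers, 1 passed the threshold (Stmn1, 0.33, adjusted p = 0.0225, limma), and Dcx was under 0.06 FPKM in all libraries. The difference in the sums came mostly from Stmn1 (150 to 156 FPKM against 185 to 202) and Cd24a (132 to 147 against 148 to 162). All other markers of this list had ranges that overlapped between the groups. The median log2 fold change of the tested markers was 0.02, as over all genes tested. The part of these cells in the Tmsb10 value was not tested. In a bulk library, more cells of a type and more RNA per cell cannot be told apart.

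Pfn1 (ENSMUSG00000018293, chromosome 11, 70651850 to 70654644, minus strand), the ubiquitous profilin, measured 646, 616 and 661 FPKM in the mock libraries and 700, 751 and 735 FPKM after quinpirole. The groups did not overlap, with the gap between the third mock and the first quinpirole library smaller than the range within either group. Its log2 fold change was 0.18 (SE 0.04), or 13.7% on the mean. Pfn2 (ENSMUSG00000027805, chromosome 3, 57841895 to 57848079, minus strand), the profilin enriched in neurons, was at 53.5, 57.2 and 56.0 FPKM in the mock libraries and 62.9, 61.0 and 60.2 FPKM after quinpirole. The groups were apart again, by 0.14 (SE 0.04) on the log2 scale.

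Among the filament-severing proteins, Cfl1 (ENSMUSG00000056201, chromosome 19, 5490455 to 5495201, plus strand), the cofilin of non-muscle cells, measured 1041, 1053 and 1103 FPKM in the mock libraries and 1228, 1285 and 1178 FPKM in the quinpirole libraries. The mean was 15.5% higher after quinpirole, and no library of one group reached into the other (log2 fold change 0.21, SE 0.05). Dstn (ENSMUSG00000015932, chromosome 2, 143915320 to 143943324, plus strand) encodes destrin, also known as actin depolymerizing factor. Its values of 197, 200 and 207 FPKM in the mock libraries and 230, 234 and 227 FPKM in the quinpirole libraries were the tightest of the family relative to the difference, with a log2 fold change of 0.19 (SE 0.03). Cfl2 (ENSMUSG00000062929, chromosome 12, 54858809 to 54862877, minus strand), the cofilin prominent in muscle, was the least abundant member, at 28.0, 29.4 and 27.9 FPKM against 31.2, 31.3 and 31.8 FPKM. It too was higher in each quinpirole library, by 0.14 (SE 0.04) on the log2 scale.

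The actins themselves differed least between the groups. Actb (ENSMUSG00000029580, chromosome 5, 142903115 to 142906754, minus strand) measured 1237, 1229 and 1299 FPKM in the mock libraries and 1342, 1364 and 1381 FPKM after quinpirole, a log2 fold change of 0.12 (SE 0.04). Actg1 (ENSMUSG00000062825, chromosome 11, 120345690 to 120348542, minus strand) measured 1275, 1323 and 1289 FPKM against 1362, 1405 and 1362 FPKM, a log2 fold change of 0.09 (SE 0.04). Both were higher in every quinpirole library, but the means differed by only 8.54% for Actb and 6.23% for Actg1.

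Cap1 (ENSMUSG00000028656, chromosome 4, 122859047 to 122886056, minus strand), the cyclase-associated protein that recycles cofilin-bound monomers, had the largest log2 fold change of the members at 0.41, and also by far the largest standard error at 0.21. Its levels were 100, 186 and 180 FPKM in the mock libraries and 202, 203 and 193 FPKM in the quinpirole libraries. The first mock library held 0.556 of the next lowest library. Without it the log2 fold change of Cap1 was 0.12, in the range of the other members.

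**Figure D1:**
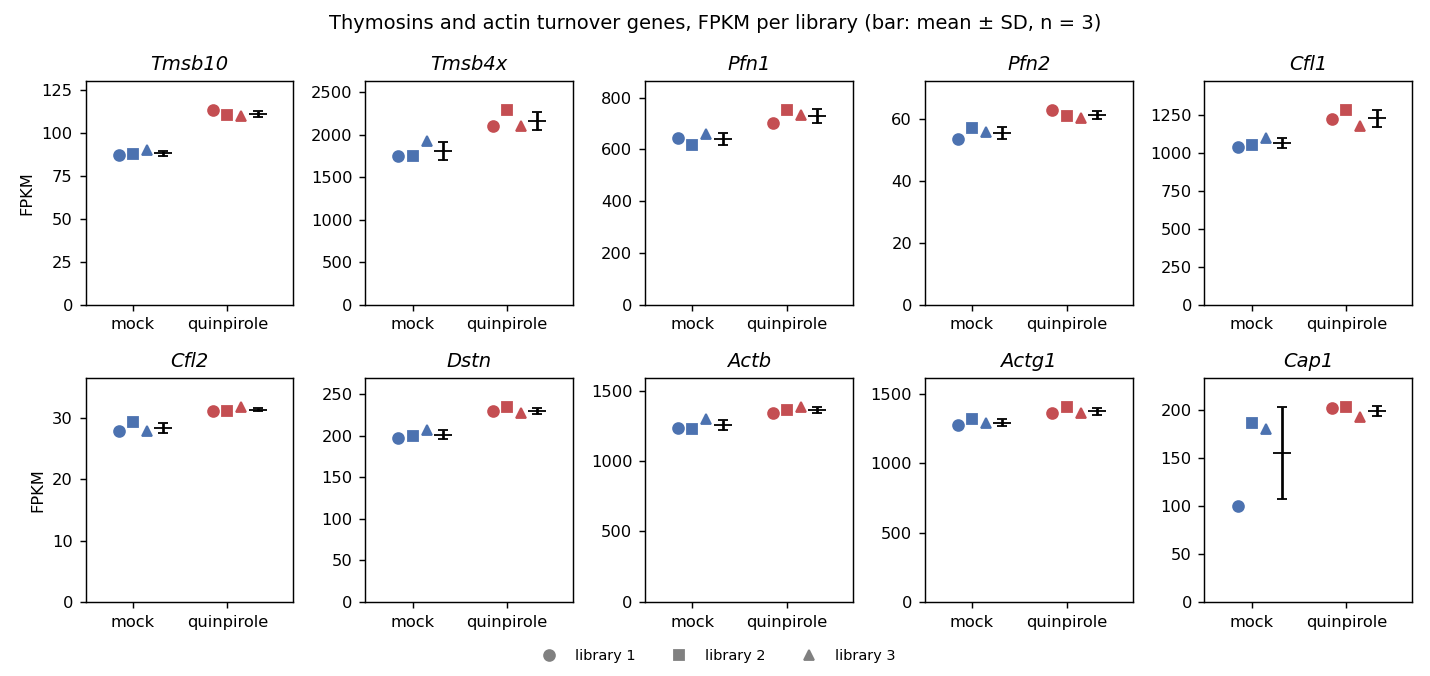
Level of each member in FPKM (vertical axes, each from 0) in the 3 mock (blue) and 3 quinpirole (red) libraries, with symbols for libraries 1 to 3 and black bars for the mean ± SD (n = 3). All quinpirole points lie above all mock points for the 10 members, with the widest relative gap between groups for Tmsb10 and a single low mock library for Cap1.

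All 10 members were thus higher after quinpirole with no overlap between the groups, in a comparison where this held for 20% of the 12255 genes tested, and where 36.9% did not overlap in either direction. In the limma fit across all genes, 5 of the 10 (Tmsb10, Tmsb4x, Pfn1, Cfl1 and Dstn) passed an adjusted p of 0.05, while Pfn2, Cfl2, Actb, Actg1 and Cap1 did not. Over all genes tested, 10.9% passed, 5.74% as higher and 5.18% as lower. Because the members were selected on this contrast, nothing is read from their counts against that background. The median log2 fold change of the members was 0.19, and that of all genes tested was 0.02. The call of 5 depended on the libraries: 0 members passed without mock library 1, mock library 2 or quinpirole library 1 (limma, with 8 of 10 at an unadjusted p under 0.05 in each case), 1 member, Tmsb10, passed without quinpirole library 2 or quinpirole library 3, and 5 passed without mock library 3. Over all 12255 genes, 6, 3 and 11 passed without mock library 1, mock library 2 and quinpirole library 1 (limma, with 3056, 2891 and 3374 at an unadjusted p under 0.05). Without quinpirole library 2, quinpirole library 3 and mock library 3, 25, 210 and 1215 genes passed. The loss of calls was thus not particular to the members. The direction of all 10 members was the same in these fits.

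The size of the differences depended on how the libraries were scaled. The FPKM sum was higher in each quinpirole library than in each mock library. When every library was scaled to the same sum, the median over the members was 0.11 on the log2 scale, and 4 members passed (Tmsb10, Tmsb4x, Cfl1 and Dstn). The same scaling turned the split of all called genes from 52.6% higher to 15.1% higher. As a percentage of all FPKM, the 10 members together made up 1.60%, 1.62% and 1.65% in the mock libraries and 1.73%, 1.77% and 1.73% in the quinpirole libraries, with no overlap. By the same measure the groups stayed apart for Tmsb10, Tmsb4x, Pfn1, Cfl1 and Dstn, and overlapped for Pfn2, Cfl2, Actb, Actg1 and Cap1. How many of all genes stay apart by this measure was not counted, so nothing is read from the number of members that did. Under quantile normalization all but 2 of the members remained higher, with Pfn1 at -0.00 and Actg1 at -0.02 on the log2 scale, and only Tmsb10 (0.25) passed the test. Tmsb10 kept the largest value of the members other than Cap1 under each of the 4 scalings.

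**Figure D2:**
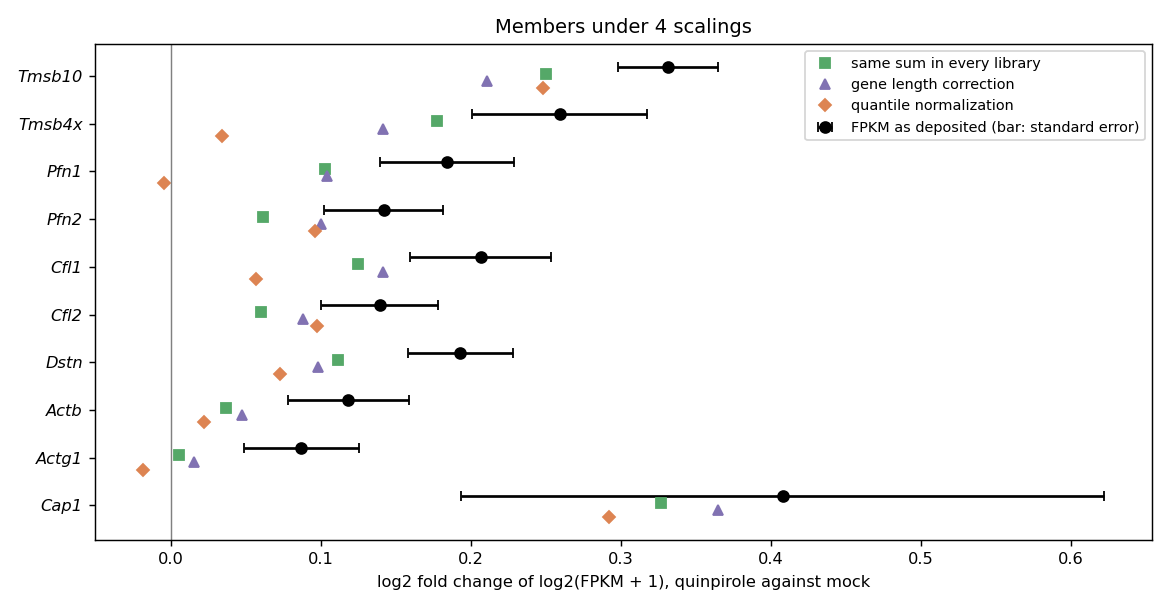
Log2 fold change of log2(FPKM + 1) between quinpirole and mock (horizontal axis) for each member under 4 scalings: FPKM as deposited (black, bar for the standard error), every library set to the same sum (green), corrected for gene length (purple) and quantile normalized (orange). Tmsb10 stays between 0.21 and 0.33, while Actg1 sits close to 0 under the 3 alternatives.

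Gene length moved with the comparison as a whole. Across 12223 genes with a known exonic length, longer genes had lower log2 fold changes (Spearman's rho of -0.475 across genes, which are not independent replicates). Their median exonic length was 4521 nucleotides, whereas the members ran from 1276 for Tmsb10 and 1371 for Tmsb4x to 3541 for Pfn2, with a median of 2668.5. After each library was corrected for gene length, the median over the members was 0.10. Tmsb10 then differed by 0.21 and Tmsb4x by 0.14, the 2 members that passed in that fit, and all 10 members were still higher, with Actg1 at 0.02.

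**Figure D3:**
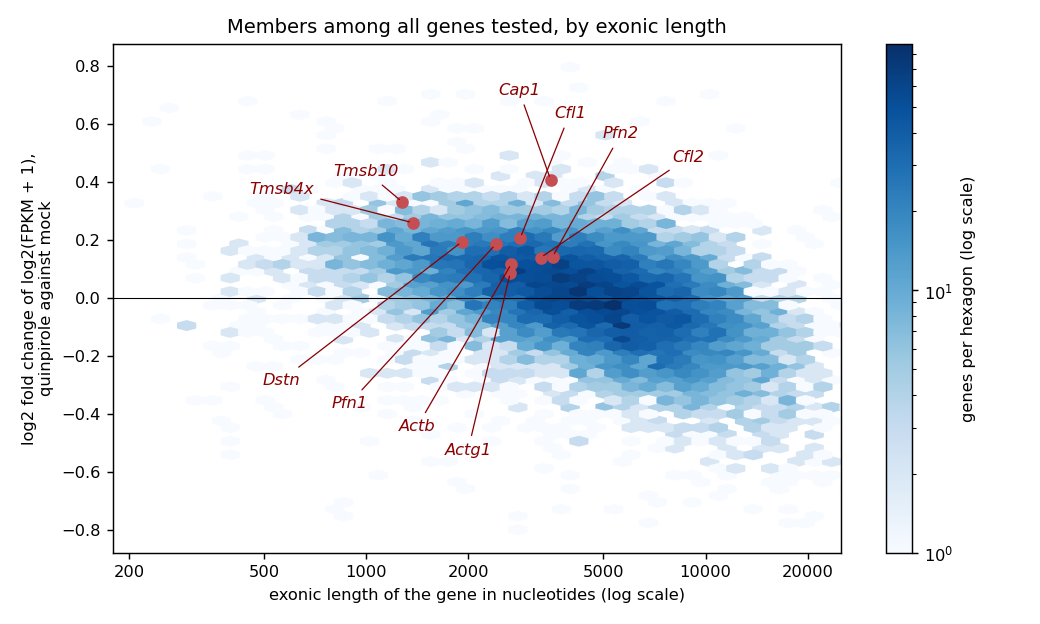
Log2 fold change between quinpirole and mock (vertical axis) against exonic length in nucleotides (horizontal log axis) for the genes tested, shaded by the number of genes per hexagon, with the 10 members as red points and 32 genes beyond 0.8 in either direction not drawn. The cloud slopes downward with length, and Tmsb10 and Tmsb4x lie at its short end.

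The members differed far more in level than between the groups. In the mock group the order was Tmsb4x (1809 ± 102 FPKM, SD, n = 3), Actg1 (1296 ± 24.6), Actb (1255 ± 38), Cfl1 (1065 ± 32.8), Pfn1 (641 ± 22.9), Dstn (201 ± 5.07), Cap1 (156 ± 48.1), Tmsb10 (88.3 ± 1.49), Pfn2 (55.5 ± 1.88) and Cfl2 (28.4 ± 0.85). Each neighbour in this order exceeded the next in all 6 libraries, except that Actg1 exceeded Actb in 4 of 6. Tmsb4x ranked 16th and Actg1 22nd among all genes in the mock libraries.

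A single member dominated among the thymosins, the profilins and the cofilin family, but not in the actin pair. On the log2(FPKM + 1) scale, 5 differences of level were tested over the 6 libraries. The test was a two-sided exact sign-flip permutation test, whose smallest possible p is 0.0312. Tmsb4x stood above Tmsb10 by 4.30 ± 0.08 (SD, n = 6). Cfl1 stood above Cfl2 by 5.21 ± 0.07 and above Dstn by 2.40 ± 0.03, and Pfn1 stood above Pfn2 by 3.53 ± 0.08. These 4 differences had the same sign in 6 of 6 libraries and exact p = 0.0312 each (adjusted over the 5, 0.0391). Actb and Actg1 could not be ordered, with a difference of -0.03 ± 0.05 and exact p = 0.156. With any single library left out, 5 libraries allow no exact p under 0.0625.

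The balance inside each family stayed within the spread between libraries. Tmsb10 made up 4.73%, 4.79% and 4.46% of the thymosin pair in the mock libraries and 5.11%, 4.60% and 4.99% after quinpirole, and these ranges overlapped. Pfn2 made up 7.64% to 8.49% of the profilin pair in the mock libraries and 7.51% to 8.24% after quinpirole. In the cofilin family, Cfl1 held 82.1% to 82.4% against 82.0% to 82.9%, Dstn 15.5% to 15.6% against 15.1% to 15.8%, and Cfl2 2.09% to 2.29% against 2.02% to 2.21%. Actg1 held 49.8% to 51.8% of the cytoplasmic actin pair against 49.7% to 50.8%. Alpha smooth muscle actin, Acta2, was the most abundant actin in these libraries at 2518 to 2881 FPKM, and its share of the 3 actins was 50.1% to 51.0% in the mock libraries and 49.7% to 51.0% after quinpirole.

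**Figure D4:**
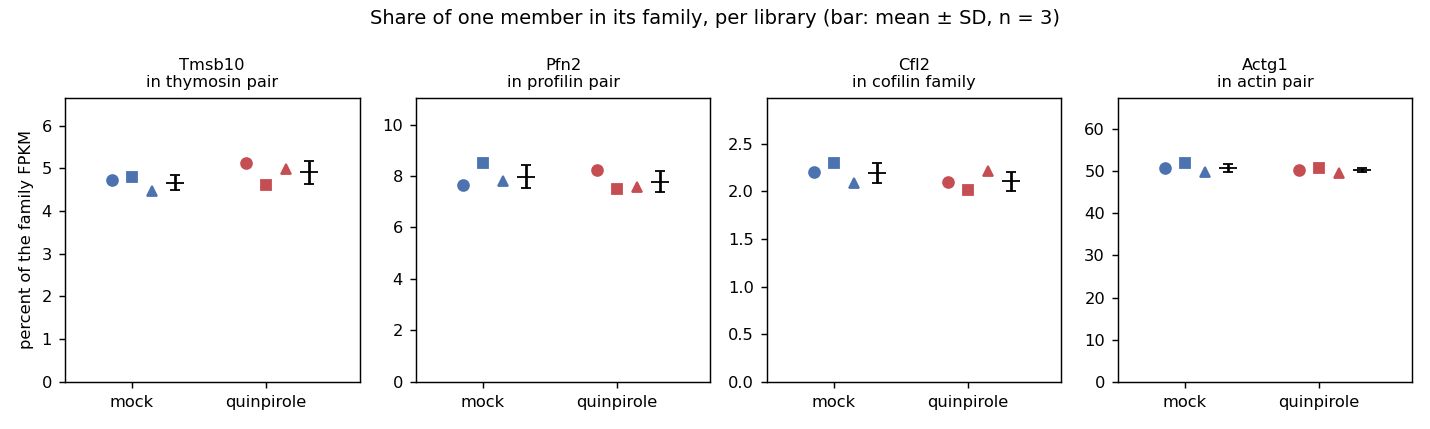
Share of the less abundant member, or of Actg1, in the summed FPKM of its family (vertical axes in percent, each from 0) in the mock (blue) and quinpirole (red) libraries, with symbols for libraries 1 to 3 and bars for the mean ± SD (n = 3). The groups overlap in all 4 families, with Tmsb10 between 4.46% and 5.11% of the thymosin pair.

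The balance between families differed between the groups, which is again a description of the same contrast. The summed thymosins per summed cytoplasmic actin (Actb plus Actg1, both in FPKM) were 0.732, 0.719 and 0.779 in the mock libraries and 0.820, 0.867 and 0.806 in the quinpirole libraries. Profilin per actin was 0.278, 0.264 and 0.277 against 0.282, 0.293 and 0.290, and the cofilin family per actin was 0.504, 0.502 and 0.517 against 0.550, 0.560 and 0.524. All 3 ratios were higher in each quinpirole library than in each mock library. A ratio within a library does not depend on how that library was scaled by a constant, but it does not show which of its terms moved. Quantile normalization is not such a constant, and under it the log2 differences were 0.03 for Tmsb4x, -0.00 for Pfn1 and 0.06 for Cfl1 against 0.02 for Actb and -0.02 for Actg1. The gene length correction is not such a constant either. With it the differences were 0.14 for Tmsb4x, 0.10 for Pfn1 and 0.14 for Cfl1 against 0.05 for Actb and 0.02 for Actg1.

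The rest of the actin turnover machinery was followed through 7 lists of 97 genes, of which 86 were tested and Pdxp, Pfn3 and Tmsb15a were not analysed here. In all, 5 of the 86 rose and 6 fell (limma, adjusted p under 0.05), where 5.74% of all 12255 genes tested rose and 5.18% fell. Means were higher after quinpirole for 43 of the 86 and for 6593 of all genes tested. These shares are close, so nothing is read from the number of calls, and they stand beside the counts of each list below. The median log2 fold change of the 86 was 0.01. With every library scaled to the same sum, 1 rose and 11 fell, where 220 of all genes rose and 1236 fell. With the gene length correction 3 rose and 3 fell, where 278 of all genes rose and 257 fell. Without mock library 1, mock library 2, quinpirole library 1 or quinpirole library 2, 0 of the 86 passed (25 to 28 at an unadjusted p under 0.05), without quinpirole library 3 it was 1, and without mock library 3 it was 16. The numbers of all genes that passed in these fits are given above.

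The Arp2/3 complex, which nucleates branched filaments, was the list whose median was nearest to that of the members. Of its 10 subunit genes 3 rose and 0 fell, all 10 had higher means after quinpirole under every scaling, and the median log2 fold change was 0.16 as deposited, 0.07 with equal sums, 0.08 with quantile normalization and 0.10 with the length correction. Arpc4 went from 70.8, 69.3 and 70.4 FPKM to 77.1, 82.6 and 83.5 FPKM, a log2 fold change of 0.20 (SE 0.04, adjusted p = 0.0297, limma). Arpc5 rose by 0.19 (SE 0.04, adjusted p = 0.029, limma) and Arpc2 by 0.17 (SE 0.04, adjusted p = 0.0471, limma), but none of the 3 passed with equal sums, with quantile normalization or with the length correction. The median exonic length of the list, 2664.5 nucleotides, was close to that of the members.

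The genes that switch Arp2/3 on or stabilize its branches had mostly lower means. Of 14 tested, 0 rose and 2 fell, 2 had higher means, and the median was -0.11 (-0.19 with equal sums, -0.10 with the length correction). Wasf3, a subunit of the WAVE complex that activates Arp2/3, measured 10.7, 10.9 and 10.3 FPKM in the mock libraries and 8.66, 7.13 and 8.28 FPKM after quinpirole, a log2 fold change of -0.37 (SE 0.07, adjusted p = 0.0288, limma). Wasf2 was at -0.19 (SE 0.05, adjusted p = 0.0483, limma), and did not pass with quantile normalization or the length correction.

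Formins and Ena/VASP proteins, which elongate unbranched filaments, had 0 of 17 genes that rose and 2 that fell, with a median of -0.10 (-0.04 with the length correction). Daam2, a formin of the Wnt pathway, had 47.1, 47.5 and 47.5 FPKM in the mock libraries and 37.0, 35.4 and 38.3 FPKM after quinpirole, a log2 fold change of -0.35 (SE 0.04, adjusted p = 0.0215, limma). Fhod1, another formin, was at -0.24 (SE 0.05, adjusted p = 0.0275, limma). Daam2 and Fhod1 passed under each of the 4 scalings. The Ena/VASP genes went both ways and none passed as deposited. Vasp was at 0.14 (SE 0.04, adjusted p = 0.0637, limma) and Evl at 0.17 (SE 0.06, adjusted p = 0.109, limma), whereas Enah was at -0.27 (SE 0.07, adjusted p = 0.0533, limma). The median exonic length was 5636 nucleotides here and 5546 among the Arp2/3 activators.

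Among capping, severing and tropomodulin genes, 2 of 14 rose and 1 fell, with a median of 0.09 (0.01 with equal sums). Capzb and Capza2, subunits of the heterodimer that caps the growing end, rose together. Capzb went from 304, 303 and 313 FPKM to 353, 362 and 347 FPKM, a log2 fold change of 0.21 (SE 0.03, adjusted p = 0.0248, limma), and Capza2 rose by 0.21 (SE 0.04, adjusted p = 0.0258, limma), from 55.1 to 59.4 FPKM in the mock libraries to 66.1 to 67.2 FPKM. Capzb did not pass with quantile normalization, nor Capza2 with equal sums. Capza1, the other alpha subunit gene, was at 0.02 (SE 0.06). Tmod2, which caps the slow-growing end, fell by 0.32 (SE 0.06, adjusted p = 0.0279, limma), and did not pass with the length correction.

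Cofilin partners and regulators showed 0 of 16 genes past the threshold (limma, with 4 at an unadjusted p under 0.05), with a median of 0.05 as deposited and -0.03 with equal sums. Wdr1, which works with cofilin to take filaments apart, measured 147, 150 and 151 FPKM against 160, 158 and 153 FPKM (0.07, SE 0.03, adjusted p = 0.205, limma). Cap2, the relative of Cap1, was at 0.09 (SE 0.04, adjusted p = 0.213, limma). The kinases that inactivate cofilin, Limk1 and Limk2, were at 0.09 (SE 0.07) and 0.03 (SE 0.04). Among the phosphatases that reactivate cofilin, Ssh2 was at -0.33 (SE 0.09, adjusted p = 0.0585, limma) and Ssh3 at -0.22 (SE 0.07, adjusted p = 0.0895, limma), the lowest values of the list. Their relative Ssh1 was at 0.10 (SE 0.16), with overlapping groups. It measured 3.99, 4.60 and 4.42 FPKM in the mock libraries and 3.72, 4.27 and 6.49 FPKM after quinpirole. Its higher mean came from quinpirole library 3 alone, so no direction is read from it. Ssh2 passed as lower with equal sums, and Coro1c, a coronin that binds filaments, passed as higher with the length correction (0.09, SE 0.03, adjusted p = 0.0895 as deposited, limma). Coro1b, another coronin, was at 0.13 (SE 0.04, adjusted p = 0.0735, limma). Of 10 other actins and small monomer binders, 0 rose and 1 fell, with a median of 0.08 as deposited, 0.00 with equal sums and -0.02 with the length correction. The gene that fell was Mtss1, a membrane-bending protein that binds monomers (-0.25, SE 0.04, adjusted p = 0.0251, limma), and it did not pass with the length correction.

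**Figure D5:**
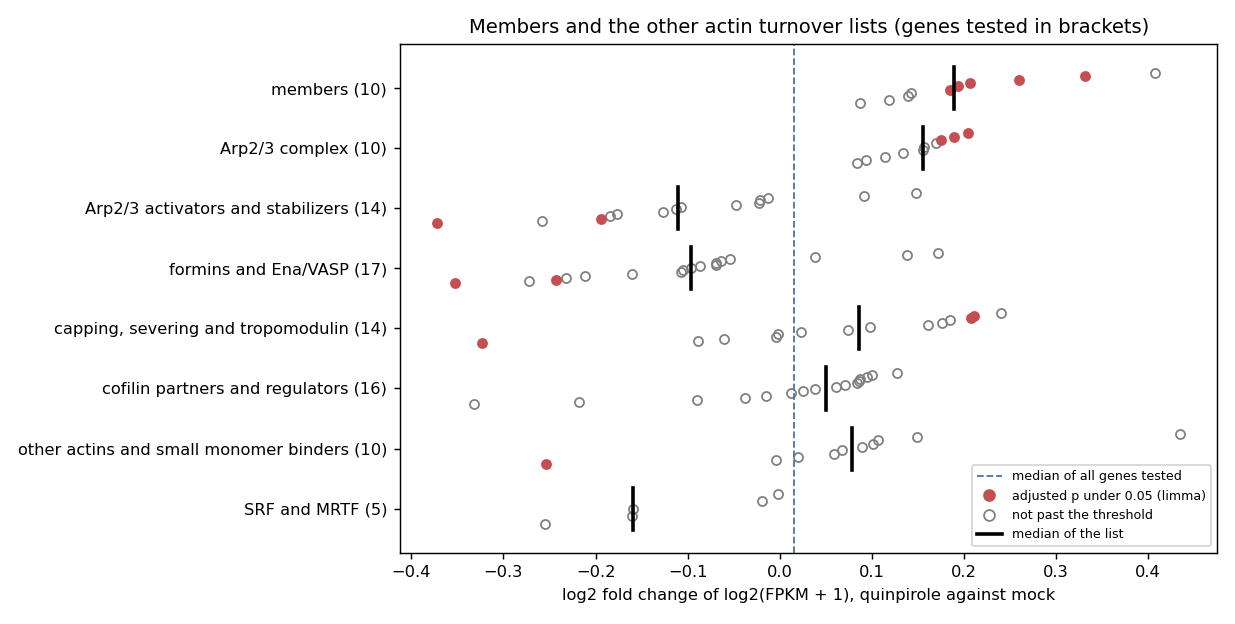
Log2 fold change of log2(FPKM + 1) between quinpirole and mock (horizontal axis) for the tested genes of the members and of the 7 other lists, with the number tested in brackets, filled red points for an adjusted p under 0.05 (limma), open points for the rest, black bars for list medians and a dashed line for the median of all genes. The Arp2/3 subunits lie to the right of the dashed line at a median of 0.16, and the Arp2/3 activators lie mostly to its left at a median of -0.11.

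Serum response factor and its cofactors, the myocardin-related factors that monomeric actin holds in the cytoplasm, are the known transcriptional readers of the actin monomer pool, and actin genes are among their textbook targets. Of the 5 genes on this list, 0 passed (limma, with 2 at an unadjusted p under 0.05) and the median was -0.16 as deposited, -0.23 with equal sums, -0.13 with quantile normalization and -0.08 with the length correction. Their median exonic length was 6114 nucleotides. Srf measured 33.2, 31.5 and 31.8 FPKM in the mock libraries and 31.4, 32 and 32.9 FPKM after quinpirole, with overlapping groups and a log2 fold change of -0.00 (SE 0.04). Mrtfa measured 10.1, 11 and 9.70 FPKM against 9.22, 8.59 and 9.37 FPKM (-0.16, SE 0.06, adjusted p = 0.127, limma).

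Promoters of the members were searched for short motifs in the 250 bases before the start, on both strands, in RefSeq sequences of GRCm38.p6, with 9 of the 10 members matched, that is all but Actb. The CArG box, the motif bound by serum response factor, was present in 1 of the 9, Actg1. By promoter this was 1 of the 11 promoters of these members, against 1.47% of all 32851 promoters. It begins 90 bases before the start and is shown here in capitals with the bases around it (chr11:120348551-120348610, minus strand).
Actg1: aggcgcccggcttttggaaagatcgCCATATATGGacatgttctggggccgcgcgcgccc
By the same count, CCAAT was in 4 of the 11 promoters (4 of the 9 members) against 33.8% of all promoters. GGGCGG was in 9 of 11 (7 of the 9 members) against 32.7%, and TATAAA in 0 of 11 against 12.4%. Several of the 11 are overlapping promoters of Tmsb10, so nothing is read from these shares. A match of letters is not a bound site, and the absence of a match in this window says nothing about the factor.

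The pattern of Tmsb10 across libraries was shared by many genes. The 5 other genes most like it by Pearson's r of log2(FPKM + 1) over the 6 libraries were Vdac1, a channel of the outer mitochondrial membrane, Chst10, a sulfotransferase, Rpl22, a ribosomal protein, Mxra8, a cell adhesion protein, and Uchl5, a deubiquitinase of the proteasome, with r between 0.994 and 0.995. Vdac1 measured 186, 189 and 193 FPKM in the mock libraries and 218, 217 and 213 FPKM after quinpirole. Such values mostly restate the difference between the groups, and 837 of 12245 genes that are not members (6.84%) had an r over 0.9. Of the members, Dstn followed Tmsb10 most closely (r = 0.98), then Cfl1 and Pfn2 (0.93 each), Cfl2 and Actb (0.92 each), Tmsb4x (0.91), Pfn1 (0.89), Actg1 (0.88) and Cap1 (0.62).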

How the data were processed

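RNA was prepared from bead-isolated astrocytes of 3 mock and 3 quinpirole libraries, with poly-T selection of mRNA and NEBNext Ultra paired-end libraries. The authors removed adaptor sequence and reads of low quality, aligned the rest to GRCm38 with TopHat2 per the labels and kept alignments with at most 1 mismatch. Each deposited table holds FPKM values by gene for a single library. The program that computed FPKM, its annotation and all versions are not given in the sources used here.

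Groups came from the sample labels. Identifiers were matched to symbols (17090 of 17193), and positions, exonic lengths and transcripts came from GENCODE M21 on GRCm38. Counts were not used here, and depth was inferred from the step size of low FPKM values in genes with 1 transcript, of which 56.4% to 65.6% lay within 0.1 of a whole fragment (20% by chance). No pair of libraries agreed within sampling noise.

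The fit used log2(FPKM + 1) of all genes whose mean FPKM reached 1, with limma 3.58.1 in R 4.3.3 (lmFit, then eBayes with trend). Tests were two-sided, p-values were adjusted by Benjamini-Hochberg and called under 0.05, and the fit was checked on simulated data. The fold changes understate those of low genes. P-values measure the spread between these libraries. Other normalizations, filters, variance models, a replicate block, a gene length correction (loess, span 0.3) and leaving out each library were tried. Level differences and motifs were computed with Python 3.11.15, scipy 1.17.1 and Biopython 1.88.

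The members and lists were chosen with earlier results of these data known. The text names the 10 members, listed genes past the threshold (up to 20), Pdxp, Wdr1, Cap2, Srf and Mrtfa whatever their p, the 5 genes most correlated with Tmsb10 and, per cell type, the leading markers. Acta2, Capza1, Limk1, Limk2, Ssh1, Ssh2, Ssh3, Coro1b, Coro1c, Vasp, Evl and Enah, and the other markers (those past the threshold or under 1 FPKM), were named after their values were seen. The test of 1 microglial marker is not reported here.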

Additional observations from a re-analysis of the deposited data

How the results depend on the processing

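Of 170 member log2 fold changes under alternatives, all but 2 kept their direction: 120 also kept their side of the threshold, 47 lost it and 1 gained it (Cfl2, adjusted p = 0.049 by limma with a minimum mean FPKM of 5). The 2 that reversed were Pfn1 at -0.0047 and Actg1 at -0.018 with quantile normalization, which gives equal ranks the same value in every library. Against 1339 genes, 5 members and 11 other actin genes past the threshold, there were 633 genes and 2 members with no filter on low values, 783 genes, 1 member and 6 other actin genes with quantile normalization, 714, 1 and 7 with eBayes without trend, and 535, 2 and 6 with the gene length correction. The replicate block left 2 genes, 0 members and 0 other actin genes (3308 genes, 7 members and 28 others at an unadjusted p under 0.05), and the replicate block with the gene length correction left 0, 0 and 0 (2738, 5 and 24). Libraries with the same number did not vary together (correlations 0.026, -0.0657 and -0.103). With 3 libraries per group, such correlations cannot tell whether the numbers mark pairs. Leaving out 1 library left 3 to 1215 genes, 0 to 5 members and 0 to 16 other actin genes, with fewest without mock library 2 and most without mock library 3. The level differences then ranged from 4.28 to 4.32 (Tmsb4x minus Tmsb10), 3.51 to 3.55 (Pfn1 minus Pfn2), 5.19 to 5.23 (Cfl1 minus Cfl2) and 2.40 to 2.41 (Cfl1 minus Dstn), where 5 libraries cannot reach the threshold (adjusted p = 0.0781, exact permutation test). The cause of these changes was not tested. Depth is an estimate, and the fragments behind a value also rest on taking the whole exonic length of the gene. With both, counting error alone was 1.85% for Tmsb10 and 2.08% for Cfl2. The spread between mock and between quinpirole libraries was 1.68% and 1.60% for Tmsb10 and 2.98% and 0.986% for Cfl2.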

Other observations

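A single low library such as mock library 1 for Cap1 was uncommon. Among 3992 genes with a mean of at least 20 FPKM, 10 had a lowest library at or under 0.556 of the next lowest, the ratio of Cap1, and 3 of these were in mock library 1: Cap1, the adaptor gene Crk and the ribosomal protein gene Rpl41, whose ratios were 0.556, 0.543 and 0.257. These genes were chosen after their values were seen. Of the 2719 words of 50 bases in the Cap1 transcript, 2.94% also occur in transcripts of its neighbour Ppt1, which measured 67.3 to 75.6 FPKM over the 6 libraries and so had no such drop. The cause of the low value was not tested.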
